A study of Mus musculus with 8 samples.

Results

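The genes of the epidermal growth factor (EGF) family described here are 10 of the 24346 genes listed for each library, chosen by symbol. They comprise the 4 ERBB receptors, Egfr, Erbb2, Erbb3 and Erbb4, and 6 ligands, Areg, Ereg, Hbegf, Tgfa, Btc and Nrg1. Cells labelled as adipose stem cells were obtained by collagenase digestion of the gonadal fat pads of 12-week-old male BALB/c mice of wild-type genotype. They were grown as 2D cultures (4 libraries, mice 2, 3, 4 and 5) or as 3D organotypic cultures in Matrigel, a basement membrane gel (4 libraries, mice 1, 4, 5 and 7), and mice 4 and 5 are thus present in both cultures. The methods list several Wnt3a and R-Spondin1 media for the 3D cultures, and which of them the sequenced cultures received is not given in the sources used here. Medium and matrix therefore cannot be told apart in this comparison. The title of the 3D library of mouse 1 gives the culture, but its short description, unlike those of the other libraries, does not. Total RNA was sequenced after ribosomal RNA depletion, and the expression values are fragments per kilobase of transcript, scaled to library size (FPKM).

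ERBB receptors are tyrosine kinases of the cell surface that signal as pairs. EGFR binds EGF, TGF-alpha, amphiregulin (Areg), HB-EGF (Hbegf), betacellulin (Btc) and epiregulin (Ereg), whereas ERBB3 and ERBB4 bind neuregulins such as Nrg1, and ERBB4 also binds HB-EGF, betacellulin and epiregulin. ERBB2 has no known ligand of its own and is the favoured partner of the others, and ERBB3 has a weak kinase and depends on its partner. The ligands are made as membrane proteins and are released by ADAM metalloproteases, and the receptors feed the RAS-ERK and PI3K-AKT cascades. In epithelia, autocrine loops of these ligands drive growth and wound closure, and in stromal cells EGFR is the best known member.

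The proximal promoters of Erbb2, Tgfa and Egfr are shown because these members passed the test between the cultures and have an entry in the RefSeq promoter table (GRCm38.p6), which held 6 of the 10 members. Each run is the sense strand upstream of the transcript start in that table. Erbb2 lies at chr11:98412234-98412469 (plus strand), Tgfa at chr6:86194972-86195221 (plus) and Egfr at chr11:16751953-16752202 (plus). Capitals mark matches, on either strand, to the E-box CACCTG, the AP-1 site TGANTCA, the CCAAT box, the TATA box TATAAA and the GC box GGGCGG.
Erbb2: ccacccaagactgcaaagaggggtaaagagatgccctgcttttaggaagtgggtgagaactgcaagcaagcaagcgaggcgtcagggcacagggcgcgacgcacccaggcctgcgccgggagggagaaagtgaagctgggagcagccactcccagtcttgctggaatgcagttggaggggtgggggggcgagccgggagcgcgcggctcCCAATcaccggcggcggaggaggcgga
Tgfa: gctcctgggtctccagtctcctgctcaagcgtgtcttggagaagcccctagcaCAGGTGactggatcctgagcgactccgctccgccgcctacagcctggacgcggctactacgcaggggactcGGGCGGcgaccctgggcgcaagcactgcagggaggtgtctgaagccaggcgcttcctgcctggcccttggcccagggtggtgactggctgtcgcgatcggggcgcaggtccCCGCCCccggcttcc
Egfr: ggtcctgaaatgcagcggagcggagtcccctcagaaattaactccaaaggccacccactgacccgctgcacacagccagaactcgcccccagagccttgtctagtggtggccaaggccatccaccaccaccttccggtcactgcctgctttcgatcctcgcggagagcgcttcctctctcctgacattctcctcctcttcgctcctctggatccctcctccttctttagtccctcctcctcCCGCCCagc
The Erbb2 window held 1 CCAAT box, the Tgfa window 1 E-box and 2 GC boxes, and the Egfr window 1 GC box. Among 32851 upstream windows of 250 bases, 33.8% held the CCAAT box, 17.2% the E-box and 32.7% the GC box. The AP-1 site, present in 6.75% of all windows, and the TATA box, present in 12.4%, were not found in these 3 windows. The matches are letters in a sequence and not measured binding.

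Each library rested on about 15.6 M to 18.4 M fragments, judged by the spacing of the lowest FPKM values. After quantile normalization, 41.5% of the 18862 genes tested differed between the cultures with a limma adjusted p below 0.05 (21.2% higher and 20.3% lower in 3D), and in 42.5% the libraries of the cultures did not overlap. The labelled cell type was checked against marker genes. In the 3D libraries Thy1 was at most 0.0554 and Eng at most 0.189 normalized FPKM, both mesenchymal stem cell surface markers called lower. Of the other 3 such markers, Ly6a was called higher, at 58.6 in mouse 1 and 1429 to 3117 in mice 4, 5 and 7. Cd44 did not pass, at 82.9 to 137 in 2D and 62.9 to 115 in 3D. Nt5e did not pass either, at 0.790, 15.5, 60.6 and 1.77 in 2D (mice 2, 3, 4 and 5) and at most 0.350 in 3D. Its 3D libraries all lay below its 2D libraries. The summed level of 12 epithelial markers (11 higher in 3D) ranged from 31.8 to 694 in 2D and from 2723 to 3183 in 3D. In 2D the highest sum, in mouse 4, came mostly from Krt8 (261), Krt18 (256), Krt19 (109) and Krt7 (67.3). The markers of this list other than keratins were at most 0.716 in 2D. The sum of 12 stromal markers (11 lower in 3D) was 2161 to 4789 in 2D and 4.76 to 8.77 in 3D. Pdgfrb, Dcn and Lum were listed at 0 in 3D, but Lum was at most 0.988 in 2D and was not called. Twist1, called lower, still stood at 4.59 to 7.99 in 3D and made up most of the 3D sum. Within 2D, 7 mesothelial markers summed to 854 and 2148 in mice 3 and 4 but to 1.99 and 0.569 in mice 2 and 5, against at most 34.0 in 3D. The sum of 5 macrophage markers was between 4.85 and 11.3 in 2D and between 124 and 170 in 3D, where Cd14 alone made up 81.7 to 164. Cd14 and Cd68 rose, Csf1r did not pass (at most 1.44 in 2D, 0.264 in 3D mouse 1 and 3.40 to 7.65 in the other 3D cultures), Adgre1 was listed at 0 in 3D and Ptprc was at most 0.0779 there. Summed endothelial markers were at most 6.79 in any library and summed epididymal markers at most 3.68, with 5 of the 9 epididymal genes listed at 0 throughout. These lists move with the cultures and with single libraries, and their part in the results was not tested.

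The ERBB receptors differed between the 2D and 3D libraries, which also differed in the epithelial and stromal markers above. Erbb2 and Erbb3 rose and Egfr fell in 3D, while Erbb4 was detected above 1 FPKM in 2 of the 4 3D libraries. Egfr made up nearly all receptor mRNA in 2D and less than the other 3 together in 3D. In bulk RNA, fewer cells of a type and less RNA per cell cannot be told apart. Of the 4 receptors, 2 were called higher and 1 lower, against 21.2% and 20.3% of all genes. The libraries did not overlap for Erbb2, Erbb3 and the ligand Tgfa, all higher in 3D as 21.6% of all genes were without overlap, nor for the lower ligand Ereg, against 20.9%.

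Erbb3, the neuregulin receptor with a weak kinase, had the largest log2 difference of the 10 members. In 2D it stood at 0.189, 0.213, 0.359 and 0.119 normalized FPKM in mice 2, 3, 4 and 5, which correspond to about 7.62 to 39.5 fragments. In 3D it stood at 17.1, 24.8, 21.6 and 15.6 in mice 1, 4, 5 and 7. All 3D libraries lay above all 2D libraries, with a ratio of the means of 89.8. The difference on the log2 scale was 4.07 with SE 0.18 (adjusted p = 2.79e-06, limma). Erbb3 is encoded on the minus strand of chromosome 10 (128567523 to 128589652, GRCm38, GENCODE M21).

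Erbb2, the shared partner receptor, rose less and from a higher level. Its 2D values were 6.53, 7.26, 5.89 and 6.27 normalized FPKM (mice 2, 3, 4 and 5), and its 3D values 17.8, 21.2, 23.9 and 21.9 (mice 1, 4, 5 and 7). The groups did not overlap, and the spread within each was small. The mean rose from 6.49 ± 0.577 to 21.2 ± 2.53 (SD, n = 4 each), or 3.26-fold, a difference of 1.56 on the log2 scale with SE 0.11 (adjusted p = 3.71e-05, limma). Exons of Ereg, Tgfa and Nrg1 overlap exons of opposite-strand genes (Gm19610, Gm43917 and Gm26578) for which no expression values are listed. Exons of Erbb2 and of Mien1, on the opposite strand of chromosome 11, share 9 nt. Mien1 was also higher in 3D, at 79.7 ± 14.8 against 51.7 ± 6.28 normalized FPKM (SD, n = 4, log2 difference 0.61, adjusted p = 0.0106 by limma), and whether the counting used strand is not given in the sources used here.

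Egfr was the most abundant receptor in every library. It stood at 49.9, 67.0, 57.6 and 43.2 normalized FPKM in 2D (mice 2, 3, 4 and 5) and at 35.6, 37.5, 46.2 and 25.8 in 3D (mice 1, 4, 5 and 7). The 3D library of mouse 5 lay above the 2D library of the same mouse, so that the groups overlapped. The difference on the log2 scale was -0.58 with SE 0.20 (adjusted p = 0.046, limma). On the values as deposited the libraries did not overlap, from 50.3 to 70.8 FPKM in 2D and from 24.1 to 39.5 in 3D, and the log2 fold change was -0.91 (limma's adjusted p = 0.00289). Over all alternatives the adjusted p of Egfr ranged from 0.00289 to 0.565. It rose above the threshold when a 2D library was left out (0.0743 without mouse 2, 0.103 without mouse 3 and 0.0949 without mouse 4). Without a 3D library it was 0.0816 (mouse 1), 0.0771 (mouse 4) and 0.0885 (mouse 7), and without both 2D libraries of mice 3 and 4 it was 0.238.

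Erbb4, a receptor for neuregulins and for several EGFR ligands, divided the 3D libraries. It was at 7.87 and 8.95 normalized FPKM in mice 5 and 7, but at 0.136 in mouse 1 and 0.670 in mouse 4. In 2D it was listed at 0 in mice 2, 3 and 5 and stood at 0.156 in mouse 4. The log2 difference of 1.79 (SE 0.72) did not pass (adjusted p = 0.0825 by limma), and the alternatives gave adjusted p-values from 0.022 to 0.35. Without the 3D library of mouse 1, which held the lowest 3D value, the log2 fold change was 2.33 and limma's adjusted p was 0.022. With any other library left out limma's adjusted p was 0.0608 to 0.182.

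**Figure D1:**
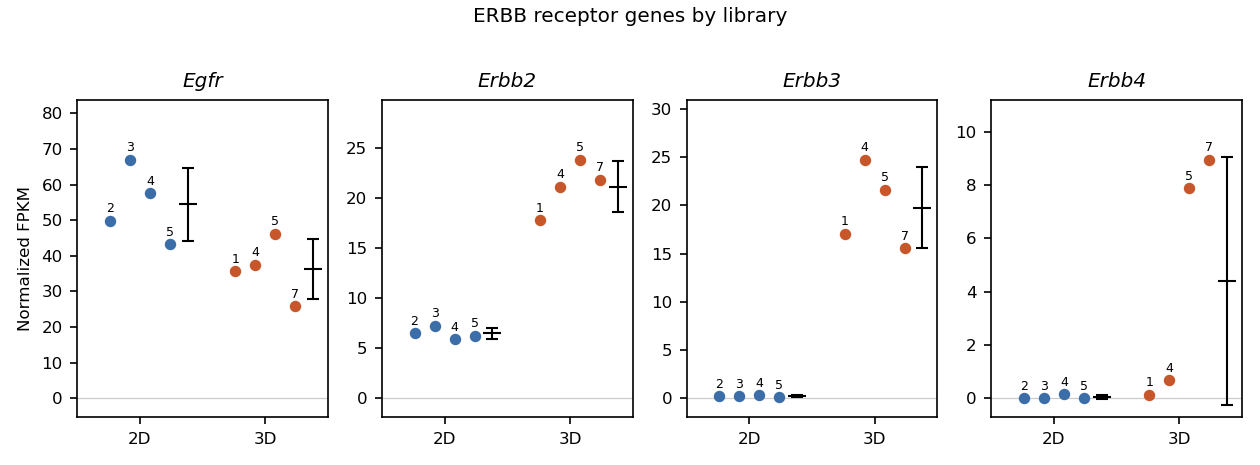
Normalized FPKM (vertical axis) of the 4 receptor genes in each 2D (blue) and 3D (orange) library, numbered by mouse, with the mean and SD of each group as a black bar (n = 4). Erbb2 and Erbb3 are separated between the cultures, Egfr overlaps through mouse 5, and Erbb4 is high in the 3D libraries of mice 5 and 7.

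FPKM values are per length, so the receptors were also set against each other within a library, on the deposited values. Summed over the 4 receptors, the level was 67.5 ± 9.18 FPKM in 2D and 76.0 ± 11.0 FPKM in 3D (SD, n = 4), and the ranges overlapped. Egfr held 90.7% ± 0.720 of this sum in 2D and 42.4% ± 5.60 in 3D (SD, n = 4). The share of Erbb2 was 8.98% ± 0.956 in 2D and 26.6% ± 2.15 in 3D, and that of Erbb3 was 0.272% ± 0.176 in 2D (SD, n = 4) and between 22.1% and 30.1% in 3D. In 3D the levels of Erbb2 and Erbb3 did not differ beyond their spread, and Erbb3 lay above Erbb2 in mouse 4. The share of Erbb4 in 3D ran from 0.314% in mouse 1 to 13.3% in mouse 7. These shares describe the composition of the mRNA, and no test was run on them.

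Among the ligands, Tgfa rose and Ereg fell in 3D, and the other 4 did not pass the test. The ligand with the highest mean in both cultures, Hbegf, showed no detectable difference. Thus 1 of 6 ligands was called higher and 1 lower. In all, 5 of the 10 members were called, a share near the 41.5% of all genes.

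Tgfa encodes TGF-alpha, an EGFR ligand of epithelia. Its 2D levels were 0.0668 (mouse 2) and 0.0914 (mouse 5) normalized FPKM, about 3.22 and 4.28 fragments, and 1.61 (mouse 3) and 1.69 (mouse 4). In 3D it was at 12.5, 17.1, 19.1 and 16.9 in mice 1, 4, 5 and 7. The groups did not overlap, and the 2D libraries of mice 3 and 4 were those with mesothelial markers. The mean rose from 0.865 ± 0.908 to 16.4 ± 2.79 (SD, n = 4), a difference of 3.35 on the log2 scale with SE 0.36 (adjusted p = 2.8e-04, limma). Without the 2D libraries of mice 3 and 4 the log2 fold change was 3.99 (limma's adjusted p = 5.85e-05). These libraries held the higher 2D values, so this result restates their split and is no separate evidence.

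Ereg encodes epiregulin, a ligand of EGFR and ERBB4, and changed in the opposite direction. It was at 11.5, 8.20, 12.1 and 8.33 normalized FPKM in 2D (mice 2, 3, 4 and 5). In 3D it was at 0.0422, 0.0277, 0.273 and 0.130 (mice 1, 4, 5 and 7), levels that rest on about 2.01 to 18.0 fragments per library. Every 3D library lay below every 2D library, and within 2D the ligand did not follow the split of mice 3 and 4. The difference on the log2 scale was -3.29 with SE 0.18 (adjusted p = 8.06e-06, limma), which understates the change of so low a level. With a pseudocount of 0.1 the fall reached -5.65.

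Hbegf encodes HB-EGF, a ligand of EGFR and ERBB4 that binds heparin. In 2D its normalized FPKM was 67.1, 13.2, 26.2 and 37.5 in mice 2, 3, 4 and 5. In 3D it was 11.2 in mouse 1 and 42.9, 40.8 and 38.1 in mice 4, 5 and 7. Mouse 3 in 2D and mouse 1 in 3D were low, and the groups overlapped. The log2 fold change was -0.06, with a 95% interval from -1.39 to 1.28 (limma's adjusted p = 0.944), an interval that holds large changes in either direction. Without the 3D library of mouse 1 the value was 0.39.

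Areg, which encodes amphiregulin, was low in 2D, at 1.03, 0.0621, 0.260 and 0.0946 normalized FPKM in mice 2, 3, 4 and 5, or about 0.972 to 11.6 fragments. In 3D it was at 0.174 in mouse 1 and at 6.35, 6.43 and 3.06 in mice 4, 5 and 7. Of these 4 libraries, 3 lay above all 2D libraries, and that of mouse 1 lay within the 2D range. The log2 difference was 1.61 (SE 0.59, adjusted p = 0.0621 by limma), and the alternatives gave adjusted p-values from 0.00187 to 0.228. Without the 3D library of mouse 1, which held the lowest 3D value, the log2 difference was 2.20 with a limma adjusted p of 0.00187. With any other library left out limma's adjusted p was 0.0694 to 0.141, and on the values as deposited it was 0.0369.

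Btc and Nrg1 split the 2D libraries in opposite ways. Btc, the gene of betacellulin, reached 2.99 (mouse 3) and 3.47 (mouse 4) normalized FPKM in 2D, but 0.377 (mouse 2) and 0.452 (mouse 5). Nrg1, a ligand of ERBB3 and ERBB4, was at 1.36 and 0.534 in mice 3 and 4 and at 5.70 and 4.46 in mice 2 and 5. Thus Btc and Tgfa were high, and Nrg1 low, in the 2 libraries with mesothelial markers. In 3D, Btc was at 1.17, 3.93, 3.68 and 4.34 and Nrg1 at 4.46, 5.65, 10.1 and 5.44 in mice 1, 4, 5 and 7. Neither passed, with log2 fold changes of 0.73 (95% interval -0.43 to 1.88, limma's adjusted p = 0.283) and 1.07 (-0.08 to 2.23, adjusted p = 0.125). Without the 2D libraries of mice 3 and 4 the log2 fold change of Btc was 1.53 (limma's adjusted p = 0.0284) and that of Nrg1 was 0.23 (adjusted p = 0.578). These are the libraries in which Btc was high and Nrg1 low, so the values restate that split and are no separate evidence.

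**Figure D2:**
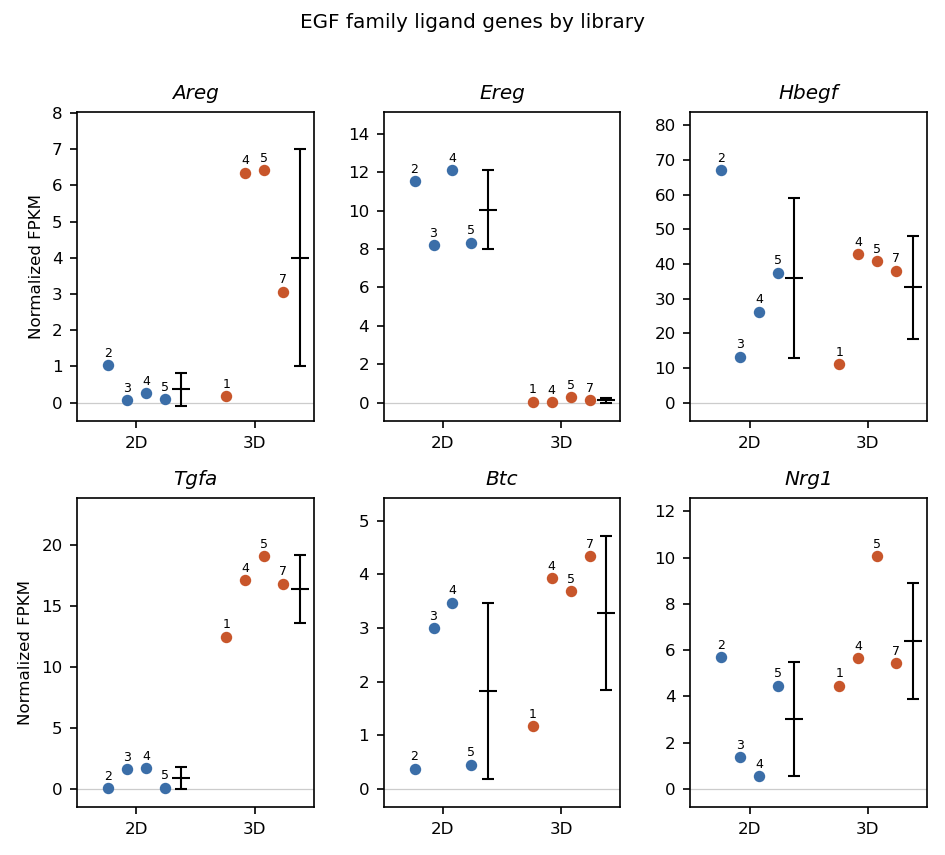
Normalized FPKM (vertical axis) of the 6 ligand genes in each 2D (blue) and 3D (orange) library, numbered by mouse, with the mean and SD of each group as a black bar (n = 4). Tgfa and Ereg are separated between the cultures in opposite directions, and every ligand but Ereg is lowest among the 3D libraries in mouse 1.

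Summed over the 6 ligands, the deposited level was 57.0 ± 31.7 FPKM in 2D and 60.7 ± 20.3 in 3D (SD, n = 4). Hbegf held 67.8% ± 15.4 of this sum in 2D and 47.4% ± 7.60 in 3D. By mean share, the second place passed from Ereg, at 20.4% ± 9.10 in 2D and 0.210% ± 0.143 in 3D, to Tgfa, at 2.32% ± 2.69 and 28.4% ± 8.24 (SD, n = 4). In the 3D library of mouse 1, Tgfa lay above Hbegf. Nrg1 held 4.47% ± 2.45 of the sum in 2D and 11.9% ± 3.79 in 3D (SD, n = 4).

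**Figure D3:**
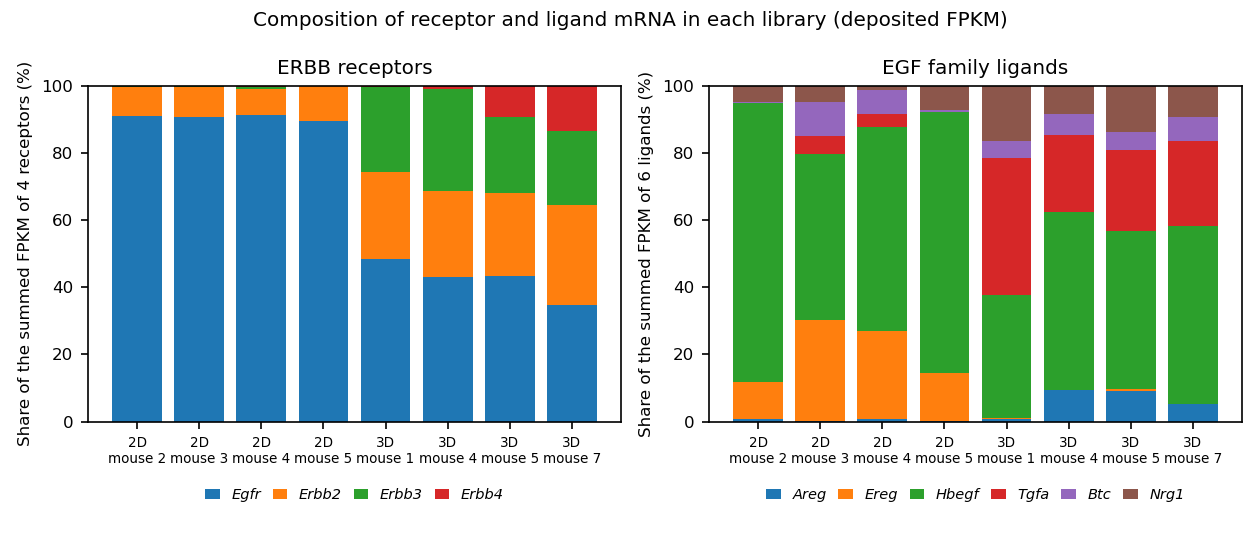
Share (%) of each receptor in the summed deposited FPKM of the 4 receptors (left) and of each ligand in that of the 6 ligands (right), 1 bar per library. Egfr fills about 90.7% of the receptor bar in 2D and 42.4% in 3D, and the Ereg part of the ligand bars in 2D gives way to Tgfa in 3D.

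Ereg, Areg and Btc are neighbours on chromosome 5, together with Epgn, the gene of epigen, within 376 kb (GRCm38, GENCODE M21). Ereg (91074622 to 91093646) and Areg (91139599 to 91148432) both lie on the plus strand, 46.0 kb apart, and Btc (91357261 to 91402994) lies on the minus strand. Ereg fell in 3D, whereas Areg and Btc had higher means in 3D without passing the test. Both were lowest among the 3D libraries in mouse 1, as were Hbegf, Tgfa and Nrg1 on other chromosomes. Epgn, named after its values were seen, did not exceed 0.498 normalized FPKM.

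In mice 4 and 5, which gave a library of each culture, the difference could be read within the mouse. Erbb3 was higher in 3D by 4.24 and 4.34 on the log2 scale in mice 4 and 5, and Erbb2 by 1.69 and 1.77. Tgfa was higher by 2.75 and 4.21 and Areg by 2.54 and 2.76, and Ereg differed by -3.67 and -2.87. The other members that did not pass were also higher in 3D in both mice, Nrg1 by 2.12 and 1.02, Hbegf by 0.69 and 0.12, Btc by 0.14 and 1.69 and Erbb4 by 0.53 and 3.15. Egfr differed by -0.61 in mouse 4 and by 0.09 in mouse 5. With the mouse as a block, a fit that leaves 1 residual degree of freedom, the calls were lost. Limma's adjusted p was 0.111 for Erbb2, Erbb3 and Areg, 0.116 for Ereg, 0.137 for Tgfa and 0.565 for Egfr. The lowest value over all genes was also 0.111, so the loss was not particular to these members. In this fit 5 of the 10 members and 5216 (27.7%) of all genes had an unadjusted p below 0.05.

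**Figure D4:**
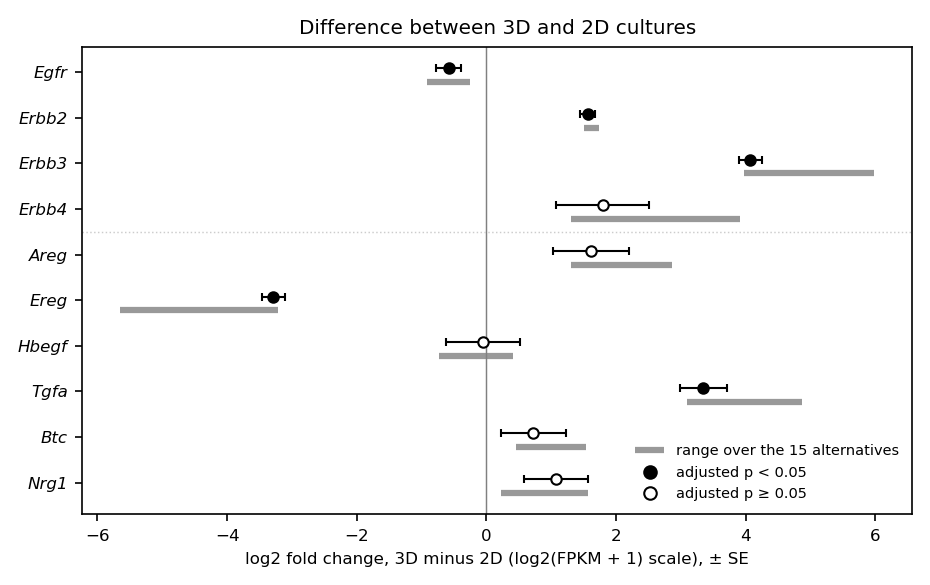
Difference between 3D and 2D cultures for the 10 members (log2(FPKM + 1) scale, horizontal axis), with points and whiskers for the fitted value ± SE, filled where the adjusted p is below 0.05, and grey bars for the range over 15 alternatives. The bars of Erbb2, Erbb3, Erbb4, Areg, Tgfa, Btc and Nrg1 stay to the right of 0. Those of Ereg and Egfr stay to the left, while the bar of Hbegf crosses 0.

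The other genes of the pathway were read from 5 lists, and limma called 13 of their 60 genes higher and 15 lower in 3D, beside 21.2% and 20.3% of all genes, at a median log2 fold change of 0.00 against 0.00 over all genes tested. With the mouse as a block, limma called 0 of the 60, and the unadjusted p of 17 (28.3%) was below 0.05, beside 27.7% of all genes. The shares of all genes called also apply to the count of each list that follows, and lists this small are described only. Of 5 further ligands, Nrg2 and Nrg4 were higher in 3D. Nrg2 ran from 0.0374 to 0.459 normalized FPKM in 2D, against 0.603 to 1.30 in 3D (log2 difference 0.71, adjusted p = 0.00688 by limma). Nrg4 ran from 0.767 to 1.17 in 2D, against 1.21 to 1.60 in 3D (log2 difference 0.37, adjusted p = 0.029 by limma), which was at 0.0656 to 0.0783 when the 2D library of mouse 2, 4 or 5 or the 3D library of mouse 4 or 7 was left out. Egf itself, named after its values were seen, did not exceed 0.881 normalized FPKM.

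Of 10 genes for the release and transport of ligands, 4 were higher and 3 lower in 3D, with a median log2 fold change of 0.22. Rhbdf2, or iRhom2, which carries ADAM17 to the cell surface, rose from 4.23 ± 2.80 to 15.8 ± 4.02 normalized FPKM (SD, n = 4) (log2 difference 1.82, adjusted p = 0.00938 by limma). Adam17, the main protease for TGF-alpha and amphiregulin, is named here after its values were seen. It rose from 14.8 ± 1.73 to 28.4 ± 2.49 (SD, n = 4) (log2 difference 0.89, adjusted p = 4.12e-04 by limma), whereas Adam10, also chosen after its values were seen, stood at 52.3 ± 14.4 and 49.5 ± 4.02. The mesenchymal metalloproteases Adam12 and Adam19 fell by 3.94 and 5.53 on the log2 scale, Adam12 from 39.7 ± 18.2 to 1.48 ± 0.491 and Adam19 from 47.8 ± 12.7 to 0.0296 ± 0.0209 normalized FPKM (SD, n = 4). Adam9 fell by 1.83 on this scale. Adam8 was between 0.262 and 1.33 in 2D and between 1.39 and 10.4 in 3D, with a limma adjusted p of 0.045 that missed the threshold (0.055 to 0.1) when any 2D library, or the 3D library of mouse 1 or 4, was left out.

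Of 12 genes that restrain or turn over the receptors, 2 were higher and 4 lower in 3D, with a median log2 fold change of -0.09. Ptprj, a receptor-type phosphatase that acts on EGFR, rose from 13.1 ± 7.12 to 94.6 ± 11.8 normalized FPKM (SD, n = 4) (log2 difference 2.89, adjusted p = 3.69e-04 by limma). Lrig2, of the leucine-rich repeat family of receptor regulators, rose by 1.12 on the log2 scale, and its relative Lrig3 fell by 2.04. The ubiquitin ligase gene Cblb fell from 13.7 ± 1.94 to 3.35 ± 0.478 and Socs5, which promotes EGFR degradation, from 37.8 ± 7.62 to 12.4 ± 1.30 (SD, n = 4), with log2 fold changes of -1.75 and -1.52.

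Of 23 genes of the RAS-ERK and PI3K-AKT cascades, 1 was higher and 6 lower in 3D, with a median log2 fold change of -0.08. The docking protein gene Gab2 fell from 8.35 ± 1.00 to 1.47 ± 0.458 normalized FPKM (SD, n = 4, log2 difference -1.93, adjusted p = 1.23e-04 by limma). The other 6 called genes had log2 differences under 1 in size, and 16 did not pass.

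Of 10 genes that ERK signalling commonly induces, 4 were higher and 2 lower in 3D, with a median log2 fold change of 1.15. Leaving out 1 library at a time gave 3 to 5 higher and 1 to 2 lower, and the values as deposited gave 2 higher, since Spry2 and Ccnd1 lost their calls. Dusp6, a phosphatase that inactivates ERK, reached 17.1 (mouse 2), 82.7 (mouse 3), 77.8 (mouse 4) and 23.1 (mouse 5) normalized FPKM in 2D, against 185 to 365 in 3D (log2 difference 2.49, adjusted p = 0.00816 by limma). Spry2, an inhibitor of receptor tyrosine kinase signalling, was likewise lower in the 2D libraries of mice 2 and 5 than in those of mice 3 and 4, with 12.5 in mouse 2, a value close to it in mouse 5, 40.0 in mouse 3 and 47.2 in mouse 4, against 57.5 to 85.9 in 3D. Its limma adjusted p was 0.0346 and lay between 0.06 and 0.0801 when the 2D library of mouse 2 or 5 or any 3D library was left out. Phlda1 and the cyclin D1 gene Ccnd1 rose by 1.76 and 1.06 on the log2 scale, with Ccnd1 at 177 ± 33.8 in 2D and 376 ± 92.2 normalized FPKM in 3D (SD, n = 4). Dusp4, a nuclear phosphatase of the same family, fell from a mean of 83.4 ± 40.0 in 2D (SD, n = 4) to values from 15.7 to 23.1 in 3D (log2 difference -1.82, adjusted p = 0.00428 by limma). The list thus held genes that moved in both directions.

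**Figure D5:**
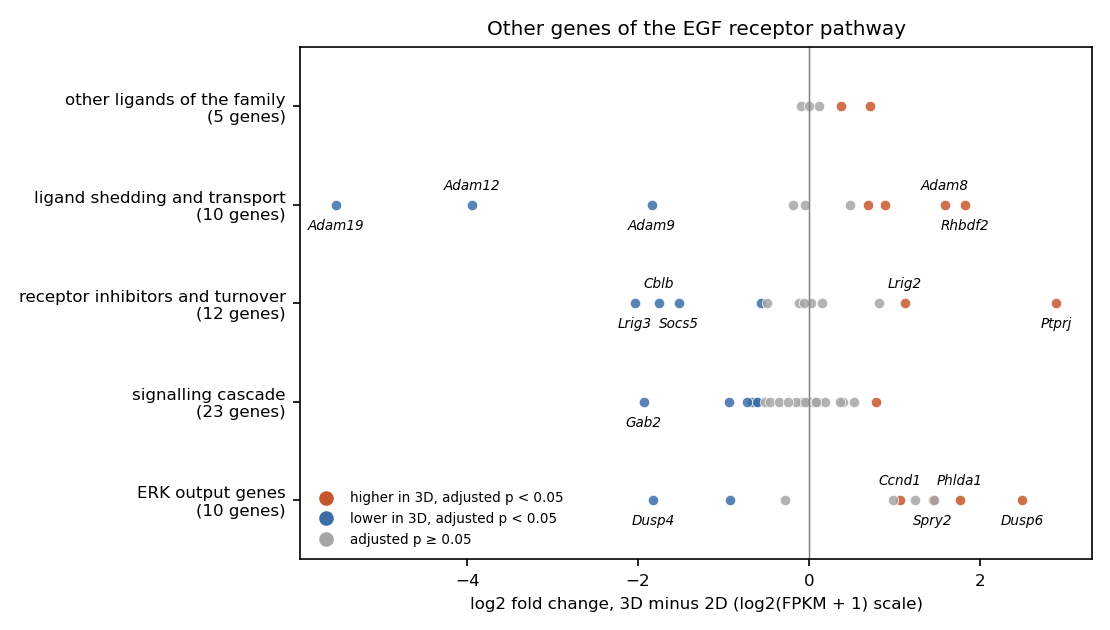
Log2 fold change between 3D and 2D cultures (horizontal axis) of the genes of 5 pathway lists, 1 point per gene, orange where higher and blue where lower in 3D with an adjusted p below 0.05 and grey otherwise. Genes called with a log2 fold change of at least 1 in size are named, from Adam19 at -5.53 to Ptprj at 2.89.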

How the data were processed

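Total RNA of 8 cultures was sequenced, and the authors deposited 1 table of FPKM values per library, without read counts. Per the methods, directional paired-end libraries were trimmed with FASTX_Trimmer and BBMap, mapped with TopHat and summarized with Cufflinks, and the submitters' processing notes name mm10. The annotation is not given in the sources used here. The methods name quantile normalization, but the deposited FPKM values do not share 1 distribution (maxima from 93611 to 419827), so it was applied to the 18862 genes above 0 in any library (5484 were listed at 0 throughout). Values were converted to log2(FPKM + 1) and compared with limma 3.58.1 in R 4.3.3 (moderated test with intensity trend, no covariates, all 8 libraries, Benjamini-Hochberg adjustment over the genes tested, threshold 0.05). The fold changes understate the change of low genes. The fit was tested on simulated data.

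Depth was estimated from single-transcript genes of at least 3000 nt in GENCODE M21. It was chosen to bring their low values near whole numbers of fragments. Between 71.7% and 83.8% of these values then lay within 0.15 of such a number, which is no independent check. The fragment numbers derived from the depth use the longest transcript of each gene, are approximate and cover counting error only. Mice 4 and 5 pair the cultures because the titles give the same animal. The deviations of their libraries from the culture means, over 12577 genes, correlated at -0.05 and -0.11. Each library is from 1 mouse, and p-values measure the spread between these libraries.

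Genes named are the 10 members, other ligands above 1 FPKM in any library, and pathway genes called with a log2 fold change of at least 1 in size. Egf, Epgn, Adam10, Adam17, Pik3r1 and Etv5 fall outside this rule and were named after their values were seen. A gene of the pathway lists is not reported here and enters none of their counts. Members and lists were chosen with earlier results of these data known. The alternatives were the mouse as a block, deposited values, a pseudocount of 0.1, no trend, genes averaging 1 FPKM or more, only mice 4 and 5, each library left out in turn and, chosen after seeing the data, both 2D libraries of mice 3 and 4 left out.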

Additional observations from a re-analysis of the deposited data

Results flagged for a closer look

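In 3 cases a library stood apart from the rest of its group, with a gap to its nearest neighbour above Dixon's 95% critical value on the log2 scale. This was tested in 20 groups of 4 libraries (10 genes in each culture), of which chance flags about 1 in 20. In 2D, Erbb4 reached 0.156 normalized FPKM in mouse 4 and was listed at 0 in mice 2, 3 and 5. With 3 values at 0 any other value passes this criterion, so the chance rate does not apply to it. Hbegf was at 11.2 in the 3D library of mouse 1, against 38.1 to 42.9 in the other 3D libraries. Btc was at 1.17 in the same library, against 3.68 to 4.34 in the others.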

How the results depend on the processing

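Of the 5 members called by limma, Erbb2, Erbb3, Ereg and Tgfa kept their direction and their call under 14 of 15 alternatives, all but the mouse block. Egfr kept its direction under all 15 and its call under 5. The 15 include the fit of only mice 4 and 5, which had no mouse block and so ignored the pairing. With the mouse as a replicate block, 0 of all genes passed limma's adjusted threshold, and so 0 receptors, 0 ligands and 0 pathway genes. The unadjusted p of 5 of the 10 members was below 0.05 in this block fit, as was that of 27.7% of all genes. When only mice 4 and 5 were used, 5 genes of the pathway lists were higher and 8 lower, and 1788 and 1432 of all genes. Of the pathway genes named above, Adam8, Adam9, Rhbdf2, Ptprj, Spry2, Dusp4, Dusp6, Nrg2 and Nrg4 lost their calls there. In that fit the receptors called lower were 0 (0 also at an unadjusted p below 0.05) and the ligands called higher were 2, with Areg added. Receptors called lower were also 0 without the intensity trend (1 at an unadjusted p below 0.05) and without the 2D libraries of mice 3 and 4 (0 at an unadjusted p below 0.05). Ligands called higher were 2 on the values as deposited, with the filter of 1 FPKM and without the 2D libraries of mice 3 and 4. Leaving out 1 library at a time gave 0 to 1 receptors called lower, 2 to 3 higher, and 1 to 2 ligands called higher. Receptors called higher were 3 with a pseudocount of 0.1, with Erbb4 added. The log2 fold change of Hbegf, -0.06, turned to 0.40 with the block and 0.40 with only mice 4 and 5, and ran from -0.44 to 0.39 with 1 library left out, above 0 without the 2D library of mouse 2 (0.31) or 5 (0.04) or the 3D library of mouse 1 (0.39). The cause of these changes was not tested. At this depth, the lowest values of Areg, Ereg and Tgfa rest on a few fragments, in Areg up to 0.260 normalized FPKM (about 5.08 fragments).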

Other observations

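The 3D libraries differed among themselves in genes of the pathway, which are named here after their values were seen. The library of mouse 1 held Pik3r1, a regulatory subunit of PI3K, at 57.7 normalized FPKM against 10.8 to 14.6 in the other 3D libraries, and Etv5, an ERK-induced transcription factor, at 120 against 28.1 to 29.7. This is the library whose short description does not give the culture. It was also the 3D library with the lowest Areg, Hbegf, Btc, Tgfa, Nrg1, Erbb2 and Erbb4, although its Erbb2 (17.8), Erbb3 (17.1) and Tgfa (12.5) lay above every 2D library. Erbb4 divided the 3D libraries differently, with mice 1 and 4 below 1 normalized FPKM and mice 5 and 7 above 7.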
